A study of Mus musculus with 6 samples.

Results

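Chromatin modifiers and remodellers were described in endothelial cells from embryonic mouse hearts with normal, reduced or absent Dll4, the gene of a Notch ligand. The members were chosen by gene symbol, with earlier results of these data known. They are the protein-coding genes named Kdm, Kmt, Hdac, Sirt, Setd, Kat, Prmt, Brd, Chd or Ezh with a number, and the Smarca to Smarce genes, without Kdm5c, Kdm5d and Kdm6a. The rule found 97 genes among the 41214 rows of the table, and 91 of them had enough counts to be tested. The 6 members that did not pass the filter on low counts were Chd5 and Prmt8, with 0 counts in every library, Kdm4d, with 1 count in all, and Hdac11, Setd4 and Smarcd3.

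DNA in the nucleus is wrapped around histones, and these genes set how accessible it is. Writers add methyl or acetyl groups to histones, erasers such as the Kdm demethylases, Hdac deacetylases and sirtuins take them off, and readers such as the bromodomain proteins bind the marks. Methylation of lysine 4 of histone H3 (H3K4) marks active promoters and enhancers, and methylation of lysine 27 (H3K27) by the Polycomb enzyme Ezh2 marks silenced genes. The Chd and most Smarca proteins use ATP to slide or evict nucleosomes. The Smarcb to Smarce proteins are further subunits of remodelling complexes. In developing vessels, Notch signalling acts through the DNA-binding protein RBPJ, which recruits acetyltransferases when active and deacetylase corepressors when not.

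The study asks what loss of Dll4 does to coronary endothelial cells as arteries form. All groups carried Pdgfb-iCreERT2-IRES-EGFP, a transgene whose Pdgfb promoter drives tamoxifen-inducible Cre and green fluorescent protein in endothelium, and all were treated with tamoxifen at E13.5 and collected at E14.5. The wt group came from crosses with wildtype females and had no floxed Dll4, the het group had 1 floxed allele (genotype label Dll4+/-) and the KO group had 2 (Dll4-/-). Sorting took cells positive for CD31 and green fluorescence, from several litters, and the number of hearts behind each library is not given in the sources used here. Each group had 2 libraries, wt replicates 4 and 5, het replicates 2 and 3, and KO replicates 1 and 2. Values for each library are given below in that order. The p-values measure only the spread between these libraries.

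Totals ran from 1537908 to 3165552 counts in the wt and het libraries and were 6501798 and 4988014 in KO. Dll4 followed the labels, at 196 and 183 CPM (counts relative to the scaled library size) in wt, 81.2 and 85.9 in het, and 19.4 and 13.7 in KO. The KO libraries stood apart in makeup. Lars2, a mitochondrial tRNA synthetase gene that contains sequence resembling ribosomal RNA, took 16.3% to 17.1% of counts in the wt and het libraries and 0.0572% and 0.0611% in KO. No preparation or sequencing date is given. In every KO comparison, genotype and a possible batch shared by the KO libraries therefore cannot be told apart. Sorted cells held endothelial markers at a summed 6561 to 6790 CPM in wt, 6082 to 6531 in het and 5591 to 5672 in KO, over 10 genes with none at 0. The 14 cardiomyocyte markers summed to 113 to 126 CPM in wt, 191 to 244 in het and 52.4 to 59.4 in KO. The 13 mural and fibroblast markers summed to 415 to 423, 462 to 586 and 189 to 362 CPM, and the 9 macrophage and blood markers to 50.5 to 119, 102 to 296 and 33.4 to 66.0. In KO against wt, 4 of 9 cardiomyocyte, 2 of 10 mural and fibroblast and 1 of 6 macrophage and blood markers tested were lower. In the mural and fibroblast list 1 was higher, and of the 10 endothelial markers 2 were higher and 3 lower. Over all genes tested, 14.7% were higher and 17.3% lower. In KO against het, 9, 4 and 2 markers of the same lists were lower, and 3 endothelial markers were higher and 3 lower. The shares over all genes were 13.9% higher and 17.2% lower there. The part of these markers in the results was not tested. In bulk RNA, fewer cells of a type and less RNA per cell cannot be told apart.

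With full loss of Dll4, chromatin genes moved in both directions. In KO against wt, 14 of the 91 tested members rose and 28 fell (edgeR, Benjamini-Hochberg adjusted p under 0.05 over all genes tested). Across all 10952 genes tested, 32% passed, 14.7% higher and 17.3% lower. Members thus fell more often than genes in general, and they rose about as often. These shares over all genes are the reference for the family counts below. The median log2 fold change over the members was 0.01, beside -0.02 over all genes. The range ran from -4.05 for Setd1b to 1.36 for Hdac6. Both KO libraries lay above both wt libraries for 34 members and below for 38, where this held for 33.2% and 34.5% of all genes. In raw shares, the members took between 0.562% and 0.591% of counts in the wt and het libraries and 0.680% and 0.691% in KO, and the scaling used for CPM allows for the loss of Lars2 counts in KO.

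**Figure D1:**
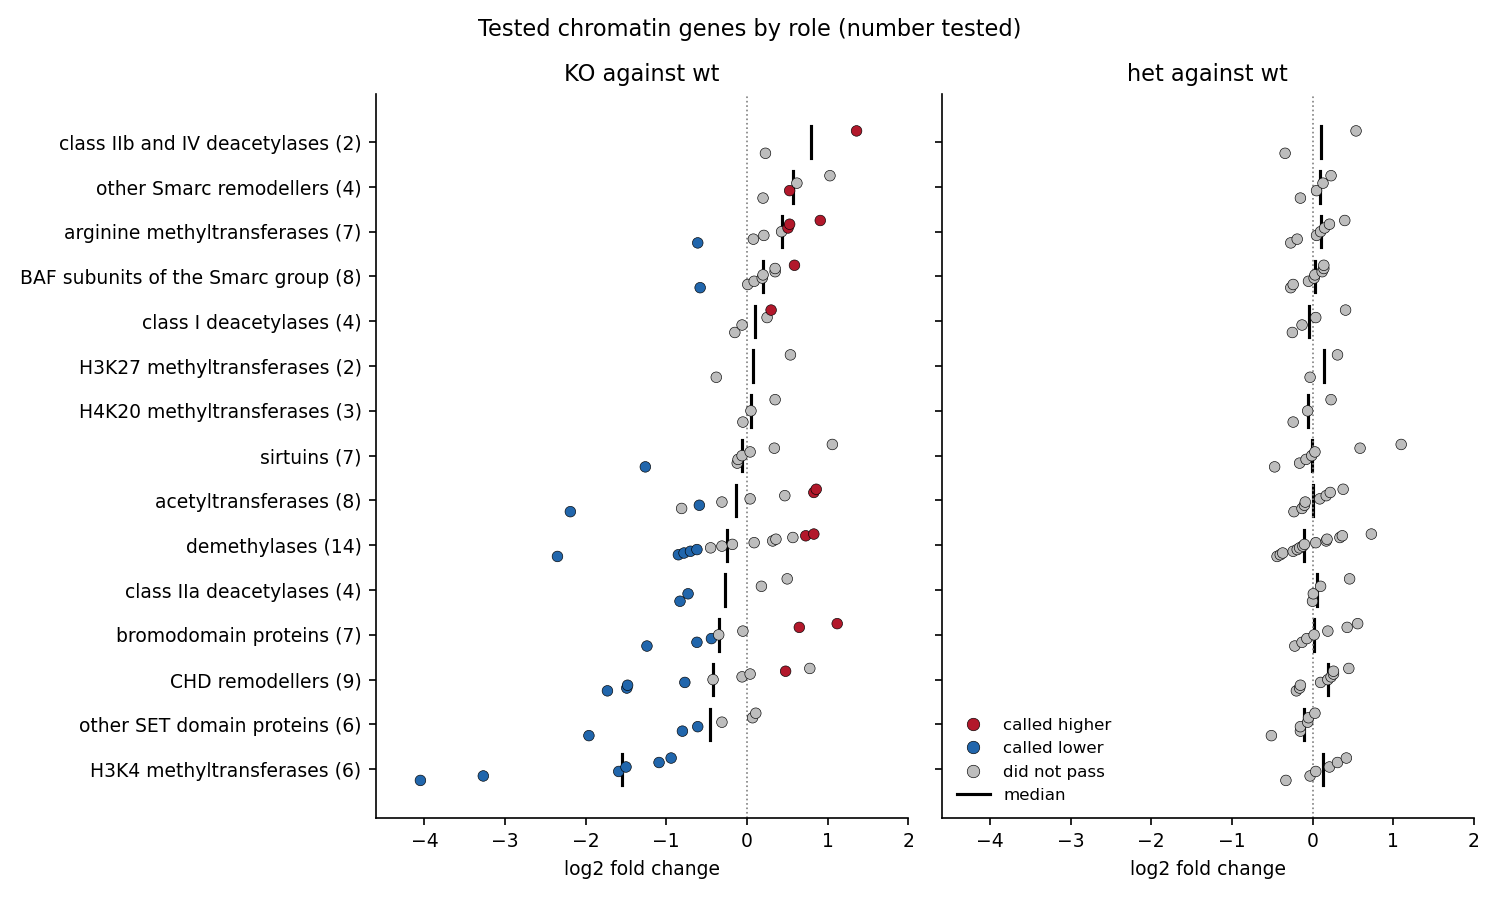
Log2 fold change of each tested chromatin gene in KO against wt (left) and het against wt (right), 1 point per gene, in rows by role with the number tested in brackets. Red and blue points were called higher and lower by edgeR, grey points did not pass, and the black bar is the row's median. All 6 H3K4 methyltransferases lie at -0.94 or lower in KO, and no gene was called in het.

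All 6 genes grouped here as H3K4 methyltransferases, Kmt2a to Kmt2d, Setd1a and Setd1b, were lower in KO than in wt. Their median log2 fold change was -1.54. This grouping was made after the data were seen. By symbol family, 5 of 8 tested Kmt genes and 4 of 7 tested Setd genes fell, and 0 rose in either. Over all genes tested, 17.3% fell. The 6 grouped enzymes are the catalytic subunits of COMPASS-type complexes. Setd1a and Setd1b, which form a pair of related subunits that lay down most H3K4 trimethylation at promoters, fell furthest.

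Setd1b (ENSMUSG00000038384, chr5:123142193-123168629 in GRCm38) stood at 20.5 and 24.7 CPM in wt, 23.5 and 35.2 in het, and 1.30 and 1.36 in KO. Its level in KO was 16.5-fold lower than in wt, a log2 fold change of -4.05 ± 0.38 (SE; edgeR adjusted p = 5.82e-08). The KO values rest on 10 and 8 counts, so the size of the fall and their near equality are uncertain. Both KO libraries lay far below the other 4, which overlapped. Setd1a (chr7:127776670-127800122) stood at 40.7 and 43.7 CPM in wt, 43.4 and 52.7 in het, and 4.81 and 3.73 in KO, 9.68-fold lower than wt (-3.27 ± 0.26, edgeR adjusted p = 4.30e-09). Both genes thus showed the same order, with wt and het overlapping and KO below. Setd1a shares 1056 bases of exon on the same strand with another annotated gene, Gm49388, so the division of reads between the 2 is uncertain.

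Both transcripts hold C-rich stretches. Members with such stretches fell more often than others, with values given further on, so the stretches are printed here. The sequences are the 20-base windows with the most C in the longest transcript of each gene (GENCODE M21, GRCm38), written 5′ to 3′ on the transcript strand with each C in capitals. The first 4 belong to members with large falls, Kat2b fell without such a window, and the last 3 belong to members that rose.
Setd1b: aCtCCCCCCCCCaCCCCCCC
Setd1a: CCtCCCCCtCCtCCCCCCCC
Kdm6b: CCCtCCaCCaCCCCCaCCCC
Chd8: CCCCCCCtCCCCttCCCtCC
Kat2b: gCaCtgCCtCCCgCgCCCCC
Kat2a: CCCCggCCCCttCaCtCCCC
Chd1: CCCgCtgCCtCCCCtCCCCC
Smarca5: CCtCCgCCgCCCCCgCCtCC
The Setd1b window holds 17 C and lies in the 3′ UTR, in exon 17, at chr5:123166779-123166798 on the plus strand. The Setd1a window also holds 17 C and is coding, in exon 8 at chr7:127785986-127786005 on the plus strand. Kdm6b has 16 C in coding exon 9 at chr11:69406855-69406874 on the minus strand, and Chd8 16 C in the 5′ UTR, exon 2, at chr14:52237611-52237630 on the minus strand. The Kat2b window holds 13 C (coding, exon 1, chr17:53567360-53567379, plus strand) and the Kat2a window 14 C (coding, exon 1, chr11:100712340-100712359, minus strand). Chd1 (5′ UTR, exon 1, chr17:15705178-15705197, plus strand) and Smarca5 (coding, exon 1, chr8:80739059-80739078, minus strand) hold 15 C each, 1 fewer than Kdm6b and Chd8.

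The Kmt2 enzymes fell by less. Kmt2b, which trimethylates H3K4 at CpG-rich promoters, stood at 36.4 and 36.7 CPM in wt, 42.7 and 47.1 in het, and 14.8 and 9.16 in KO (-1.59 ± 0.25, edgeR adjusted p = 4.15e-05). Kmt2a, the mixed-lineage leukaemia gene, stood at 76.6 and 50 CPM in wt, 59.1 and 66.0 in het, and 23.6 and 21.9 in KO (-1.50 ± 0.20, edgeR adjusted p = 6.44e-06). For both genes the KO libraries lay below all other libraries. Kmt2d, which with Kmt2c monomethylates H3K4 at enhancers, stood at 126 and 82.3 CPM in wt, 126 and 94.6 in het, and 53.5 and 45.3 in KO (-1.09 ± 0.20). Kmt2c stood at 59.5 and 40.5 CPM in wt, 43.4 and 38.4 in het, and 29.1 and 23.6 in KO (-0.94 ± 0.21). Their edgeR adjusted p were 6.79e-04 and 0.00143. Setd1a, Setd1b, Kmt2a and Kmt2b passed under all 18 alternatives tried, and these 2 did not. Kmt2d, whose longest transcript of 19823 bases holds a window of 18 C, went to -0.25 with the trend of fold change with transcript length over all genes removed, to -0.40 with the trend with C-rich windows removed, and to 0.38 with both removed. Kmt2c went to -0.27 with the length trend removed and to -0.57 without wt replicate 4, losing its call in both.

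**Figure D2:**
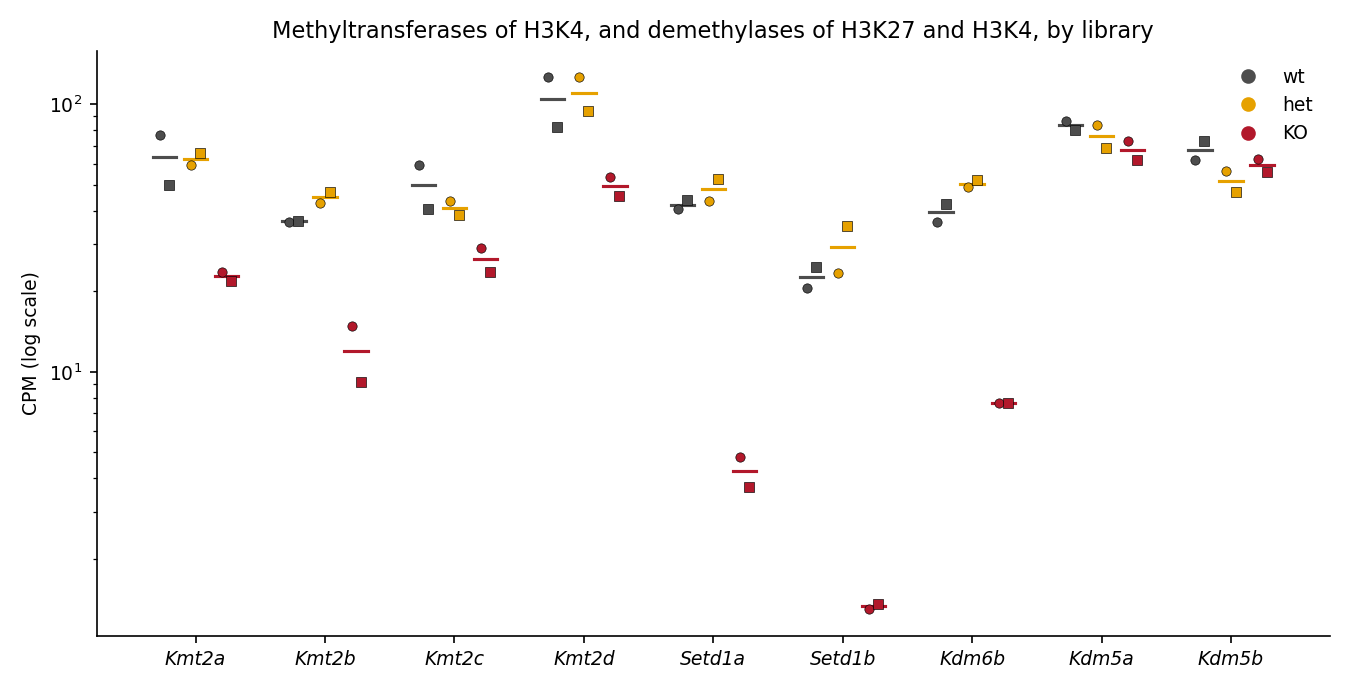
CPM of the 6 H3K4 methyltransferases, the H3K27 demethylase Kdm6b and the H3K4 demethylases Kdm5a and Kdm5b in each library, on a log axis. Circles and squares are the lower- and higher-numbered replicate of wt (grey), het (orange) and KO (red), and bars are group means; Setd1b falls to 1.30 and 1.36 in KO, while Kdm5a and Kdm5b lie between 46.8 and 86.5 in every library.

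Among the other SET domain proteins, 3 of 6 tested fell and none rose, where 17.3% and 14.7% of all genes did. Setd7, a lysine methyltransferase of H3K4 and of non-histone proteins, stood at 24.4 and 25.9 CPM in wt, 21.4 and 15 in het, and 6.10 and 6.79 in KO, 3.89-fold lower than wt (-1.96 ± 0.30, edgeR adjusted p = 4.20e-05). Setd2, the enzyme of H3K36 trimethylation, fell by 0.80 on the log2 scale and Kmt2e by 0.61. Setd3, an actin histidine methyltransferase and the member of this family with the highest level per length in wt (43.4 CPM per kilobase of transcript), gave 0.11 ± 0.12 and did not pass. Kmt2e overlaps the antisense gene Srpk2 by 972 exon bases, and the library kit does not mark strand. Kmt2e lost its call without wt replicate 4 (-0.44) and with the C-rich trend removed (-0.11).

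The H3K27 and H4K20 methyltransferases showed no call. Ezh2, the main Polycomb methyltransferase, stood at 87.8 and 70.2 CPM in wt, 66.2 and 86.5 in het, and 65.8 and 56.3 in KO (-0.38 ± 0.17, edgeR adjusted p = 0.0863). Its paralog Ezh1 stood at 25.3 and 20.9, 24.9 and 31.8, and 27.3 and 41.1 CPM (0.54 ± 0.25, edgeR adjusted p = 0.100). The groups of each gene did not overlap between KO and wt, although neither change passed. Per length, the ratio of Ezh2 to Ezh1 was 5.24 and 5.08 in wt, 4.01 and 4.11 in het, and 3.64 and 2.07 in KO. Ezh2 passed with the length trend removed (-0.52), with the C-rich trend removed (-0.48) and with both removed (-0.61). Ezh1 passed as higher without KO replicate 1 (0.82) and with library size only (0.90). Kmt5a, the H4K20 monomethyltransferase, stood at 150 and 147 CPM in wt and 141 and 146 in KO (-0.05 ± 0.12), and Kmt5b and Kmt5c gave 0.35 and 0.05 without passing.

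Of 7 tested arginine methyltransferases, 3 were higher and 1 lower, where 14.7% and 17.3% of all genes were. Of the rises, only that of Prmt7 passed under all 18 alternatives. Prmt7, which monomethylates arginine, stood at 39.0 and 35.4 CPM in wt, 29.2 and 32.1 in het, and 67.0 and 73.8 in KO (0.91 ± 0.17, edgeR adjusted p = 3.63e-04). Prmt5, the main enzyme of symmetric arginine dimethylation, stood at 83.9 and 96.8, 95.4 and 91.8, and 121 and 135 CPM (0.51 ± 0.13, edgeR adjusted p = 0.00611). In both genes the KO libraries were above every other library. Prmt7 shares 247 exon bases with the antisense gene Smpd3. Prmt5 lost its call without wt replicate 4 or KO replicate 2, at 0.44 in both cases. Prmt3 gave 0.53 ± 0.19 (edgeR adjusted p = 0.0368) and lost its call under 9 of 18 alternatives, among them DESeq2 (0.54), limma-voom (0.52) and each omission of a wt or KO library (0.50 to 0.61). Prmt1, which makes most asymmetric dimethylarginine and had the highest level per length of all members in wt (142 CPM per kilobase), went the other way, from 312 and 299 CPM in wt through 297 and 243 in het to 188 and 213 in KO (-0.61 ± 0.11, edgeR adjusted p = 2.53e-04).

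The acetyltransferases divided, with 2 of 8 higher and 2 lower, where 14.7% and 17.3% of all genes were. Kat2a and Kat2b encode the paralogs GCN5 and PCAF, alternative catalytic subunits of the SAGA and ATAC complexes. Kat2b stood at 29.5 and 23.4 CPM in wt, 25.6 and 24.4 in het, and 6.75 and 4.75 in KO, 4.57-fold lower than wt (-2.19 ± 0.29, edgeR adjusted p = 7.76e-06). Kat2a stood at 38.5 and 42.4 CPM in wt, 54.8 and 51.0 in het, and 70.3 and 72.9 in KO (0.83 ± 0.17, edgeR adjusted p = 5.56e-04). The het libraries of Kat2a lay between the other groups without overlap, whereas those of Kat2b lay within wt. Per length, Kat2a exceeded Kat2b by a factor of 1.99 and 2.77 in wt, 3.27 and 3.19 in het, and 15.9 and 23.5 in KO. Kat7 (HBO1), which acetylates H3 and H4 at replication origins and gene bodies and had the highest level per length of this family in wt, rose from 73.2 and 79.7 CPM in wt to 137 and 140 in KO, with het at 79.1 and 62.8 (0.86 ± 0.14, edgeR adjusted p = 8.22e-05). Kat6a fell by 0.59 but lost its call under 7 alternatives, among them without wt replicate 4 (-0.28) and without KO replicate 2 (-0.44), and Kat5, Kat6b, Kat8 and Kat14 ranged from -0.81 to 0.47 without passing.

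Of 14 tested demethylases, 2 were higher and 5 lower, where 14.7% and 17.3% of all genes were. The share that rose was thus near that of all genes. Kdm6b (JMJD3), which removes H3K27 methylation, stood at 36.4 and 42.4 CPM in wt, 49.1 and 52.0 in het, and 7.66 and 7.63 in KO, 5.10-fold lower than wt (-2.35 ± 0.23, edgeR adjusted p = 1.25e-07). Het was above wt and KO below it without overlap, although the difference of het from wt did not pass (0.37, edgeR adjusted p = 0.686). Kdm3a, an H3K9 demethylase also known as a hypoxia target, stood at 43.7 and 44.3, 42.7 and 39.1, and 80.9 and 75.3 CPM (0.83 ± 0.16, edgeR adjusted p = 4.65e-04). Kdm4b, which acts on H3K9 and H3K36, stood at 26.5 and 25.9, 29.9 and 25.1, and 41.7 and 45.8 CPM (0.73 ± 0.20, edgeR adjusted p = 0.00840), and its close relative Kdm4a fell by 0.85. The other members that fell were Kdm2a (-0.78), Kdm3b (-0.70) and Kdm2b (-0.62). Kdm4a lost its call without wt replicate 5 (-0.56), Kdm3b without wt replicate 5 (-0.35) or KO replicate 2 (-0.54), and Kdm2b without wt replicate 4 (-0.34) or KO replicate 1 (-0.50). Kdm4b was not called when wt replicate 4 (0.79), wt replicate 5 (0.72) or KO replicate 2 (0.67) was left out, and Kdm2a lost its call with the C-rich trend removed (-0.28). Kdm3b shares 3292 exon bases with the antisense gene Gm26538. The H3K4 demethylases did not pass, with Kdm5a at -0.31 ± 0.15, Kdm5b at -0.18 ± 0.16, Kdm1a (LSD1, the family's highest level per length in wt) at 0.32 ± 0.13 and Kdm1b at 0.57 ± 0.38.

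Of the class I deacetylases, which work in nuclear corepressor complexes, 1 of 4 rose and none fell. Over all genes tested, 14.7% rose and 17.3% fell. Hdac1, with 123 CPM per kilobase in wt the highest of its family, stood at 254 and 249 CPM in wt, 277 and 241 in het, and 231 and 221 in KO (-0.15 ± 0.10, not passing). Hdac2 stood at 205 and 206, 189 and 188, and 259 and 247 CPM (0.30 ± 0.10, edgeR adjusted p = 0.0307), a call lost under 7 of 18 alternatives, among them every omission of a wt or KO library (0.27 to 0.34). The ratio of Hdac1 to Hdac2 per length was 1.97 and 1.93 in wt, 2.33 and 2.05 in het, and 1.42 and 1.43 in KO. Hdac3 and Hdac8 gave 0.25 and -0.06 without passing.

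In class IIa, whose members shuttle between nucleus and cytoplasm, 2 of 4 fell and none rose, where 17.3% and 14.7% of all genes did. Hdac7, known for its part in keeping the vascular wall of mouse embryos intact, stood at 234 and 315 CPM in wt, 254 and 291 in het, and 161 and 146 in KO (-0.83 ± 0.13, edgeR adjusted p = 8.22e-05). Hdac4 stood at 43.2 and 32.9, 34.9 and 46.1, and 23.6 and 22.7 CPM (-0.73 ± 0.21, edgeR adjusted p = 0.0121), but it shares 1782 exon bases with the antisense gene Gm26720 and lost its call under 6 alternatives, among them without wt replicate 4 (-0.46) and without KO replicate 2 (-0.70). Hdac5 stood at 24.4 and 32.3, 25.6 and 47.8, and 41.9 and 36.6 CPM (0.50 ± 0.25), and Hdac9 at 15.4 and 17.1 in wt and 17.5 and 19.2 in KO (0.18 ± 0.27), neither passing. Hdac7 remained the leading class IIa gene per length, and its ratio to Hdac5 was 11.0 and 11.2 in wt, 11.4 and 6.99 in het, and 4.41 and 4.56 in KO.

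Hdac6, a class IIb deacetylase that acts mainly on tubulin in the cytoplasm, had the highest fold change of all members. It stood at 8.13 and 15.8 CPM in wt, 21.4 and 13.6 in het, and 32.2 and 26.8 in KO (1.36 ± 0.31, edgeR adjusted p = 0.00175). The call was lost without wt replicate 4 (0.94, edgeR adjusted p = 0.0941). Hdac6 lies on the X chromosome, and the libraries differed in the sex-linked genes. Xist stood at 62.5 and 110 CPM in wt, 279 and 229 in het, and 30.1 and 22.2 in KO, and the Y-linked Uty at 15 and 8.86, 2.14 and 4.19, and 17.8 and 18.5. Xist was lower in KO than in wt (-1.68) and het (-3.26). Uty was higher in KO than in het (2.38) and did not pass against wt (0.57). The part of embryo sex in the Hdac6 value, or in any other value of the KO comparisons, was not tested. The other X-linked members, Hdac8 and Smarca1, gave -0.06 and 1.03 without passing.

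Of the sirtuins, NAD-dependent deacetylases, 1 of 7 fell and none rose, where 17.3% of all genes fell and 14.7% rose. Sirt6, which removes acetyl groups from H3K9, stood at 13.3 and 22.1 CPM in wt, 17.1 and 14.3 in het, and 7.66 and 6.79 in KO (-1.26 ± 0.34, edgeR adjusted p = 0.00759). The call was lost without wt replicate 5 (-0.87) and without KO replicate 2 (-1.17). Sirt1, the nuclear sirtuin best known in endothelium, gave 0.04 ± 0.24, and Sirt2, the highest per length in wt, -0.06 ± 0.19.

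Bromodomain readers of acetylated histones moved in opposite directions, with 2 of 7 higher and 3 lower, where 14.7% and 17.3% of all genes were. Brd2 and Brd3 are BET proteins, which tether transcription elongation factors to acetylated chromatin. Brd2 stood at 103 and 101 CPM in wt, 158 and 144 in het, and 162 and 158 in KO (0.65 ± 0.12, edgeR adjusted p = 2.77e-04). It shares exon stretches of 386 and 313 bases with the antisense genes CR974462.3 and H2-DMa. Brd3, the highest per length in wt, stood at 209 and 156, 163 and 153, and 79.1 and 76 CPM (-1.24 ± 0.14, edgeR adjusted p = 5.05e-07). The Brd2 libraries of het were close to those of KO, and the Brd3 libraries of het close to those of wt. The ratio of Brd2 to Brd3 per length was 0.573 and 0.752 in wt, 1.13 and 1.09 in het, and 2.39 and 2.42 in KO, so Brd3 led in wt and Brd2 in KO. Brd8, a subunit of the TIP60 acetyltransferase complex, rose from 52.7 and 72.1 CPM in wt to 127 and 141 in KO, with het between at 74.1 and 90.0 (1.12 ± 0.16, edgeR adjusted p = 1.50e-05), and Brd9, a subunit of the non-canonical BAF complex, fell by 0.62. Brd9 lost its call without wt replicate 4 (-0.63) or wt replicate 5 (-0.57).

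**Figure D3:**
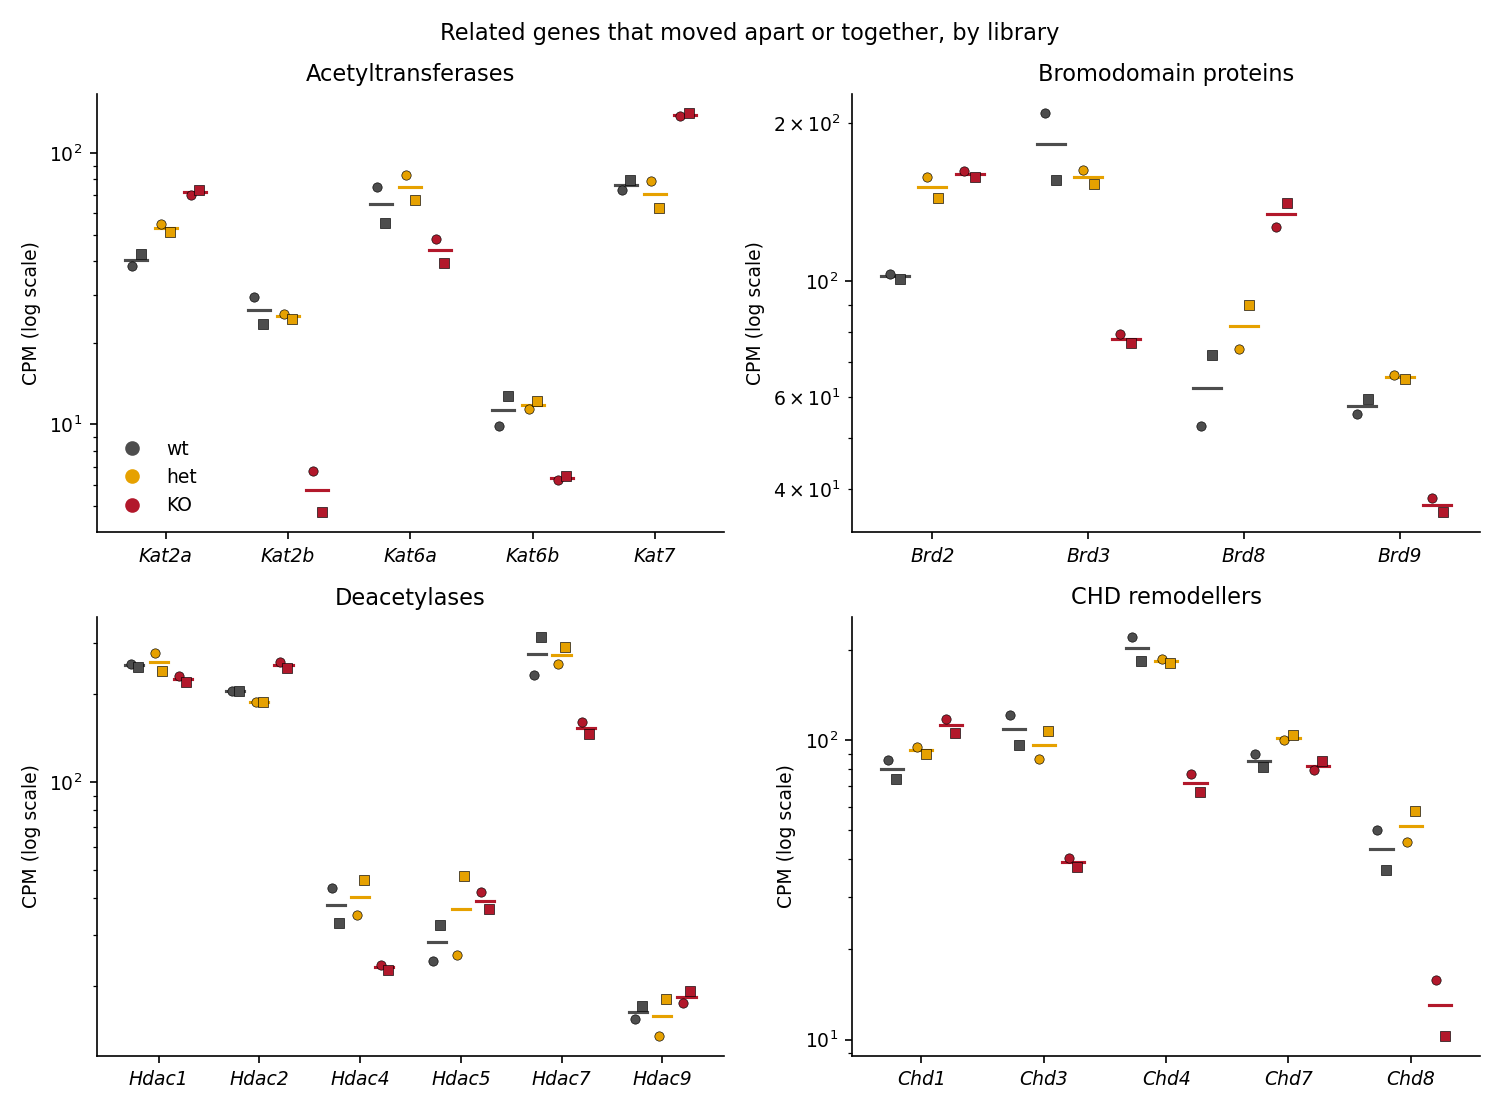
CPM of related genes in each library on log axes, in panels for acetyltransferases, bromodomain proteins, deacetylases and CHD remodellers. Circles and squares are the lower- and higher-numbered replicate of wt (grey), het (orange) and KO (red), and bars are group means; Kat2a and Brd2 rise in KO, to 70.3 and 72.9 and to 162 and 158, where Kat2b and Brd3 fall.

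CHD remodellers fell more often than they rose, with 4 of 9 tested lower and 1 higher, where 17.3% and 14.7% of all genes were. Chd4, the main ATPase of the NuRD complex, which couples remodelling to deacetylation, stood at 221 and 184 CPM in wt, 186 and 181 in het, and 77.0 and 67.2 in KO (-1.49 ± 0.13, edgeR adjusted p = 1.51e-08). Its alternative subunit Chd3 stood at 121 and 96.2, 86.2 and 107, and 40.5 and 37.7 CPM (-1.48 ± 0.16, edgeR adjusted p = 3.98e-07). The paralogs fell by like amounts, and the ratio of Chd4 to Chd3 per length ranged from 1.84 to 2.34 over the 6 libraries. Chd8, a CHD protein that binds beta-catenin and CTCF, stood at 50.1 and 36.7, 45.6 and 57.9, and 15.8 and 10.3 CPM (-1.73 ± 0.24, edgeR adjusted p = 1.38e-05). It overlaps the antisense gene Gm26590 by 587 exon bases. Chd1, which binds trimethylated H3K4 and remodels nucleosomes in transcribed genes, rose from 86.0 and 74.0 CPM in wt to 118 and 106 in KO, with het at 94.7 and 90.0 (0.48 ± 0.14, edgeR adjusted p = 0.0120). Chd1 lost its call without wt replicate 5 or KO replicate 1, at 0.39 in both cases. The fall of Chd9 (-0.77) was lost under 10 of 18 alternatives, among them those that left out wt replicate 4 (-0.23), KO replicate 1 (-0.65) or KO replicate 2 (-0.88). Chd7, the gene of CHARGE syndrome, gave -0.06 ± 0.14.

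The ATPases of the BAF complex showed no call in KO against wt. Smarca4 (BRG1) stood at 260 and 250 CPM in wt, 264 and 257 in het, and 270 and 271 in KO (0.09 ± 0.10), and Smarca2 (BRM) at 81.3 and 80.4, 74.1 and 64.2, and 89.0 and 95.5 (0.19 ± 0.14). Smarcb1, the core subunit with the highest level per length of the Smarc genes in wt (73.9 CPM per kilobase), stood at 125 and 121, 123 and 125, and 115 and 133 CPM (0.01 ± 0.13). The levels of Smarca4 and Smarcb1 varied by little over the 6 libraries, Smarca2 was lowest in het and highest in KO, and Smarca4 exceeded Smarca2 per length by a factor of 2.63 to 3.71 in each. Among the 8 tested BAF subunits, Smarcc2 rose and Smarcd1 fell, 25% called beside 32% of all genes. With library size only, which moved the median of all genes from -0.02 to 0.35, 7 of the 8 were called higher and 0 lower, among them Smarca2 (0.55), Smarca4 (0.45) and Smarcb1 (0.38). Smarcc2 (BAF170), a scaffold subunit, stood at 68.5 and 72.1, 77.6 and 76.8, and 112 and 98.4 CPM (0.59 ± 0.14, edgeR adjusted p = 0.00321), and its paralog Smarcc1 (BAF155) at 107 and 86.1, 103 and 87.9, and 121 and 127 (0.35 ± 0.14, edgeR adjusted p = 0.0615). Smarcd1 (BAF60A), an accessory subunit, stood at 80.5 and 81.6, 72.6 and 100, and 53.6 and 55.0 CPM (-0.58 ± 0.16, edgeR adjusted p = 0.00841), and Smarcd2 at 88.2 and 101, 71.9 and 82.7, and 123 and 118 (0.35 ± 0.14, edgeR adjusted p = 0.0554). The Smarcd1 to Smarcd2 ratio per length was 0.758 and 0.670 in wt, 0.839 and 1.01 in het, and 0.363 and 0.388 in KO. Smarcd1 lost its call without wt replicate 4 (-0.55), without wt replicate 5 (-0.56) and with the C-rich trend removed (-0.26). Smarcd3, the heart- and muscle-associated form, stood at 1.40 to 3.56 CPM in all libraries and was not tested.

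Outside BAF, Smarca5 (SNF2H), the ATPase of ISWI remodellers that space nucleosomes, rose. It stood at 169 and 159 CPM in wt, 180 and 163 in het, and 248 and 228 in KO (0.53 ± 0.11, edgeR adjusted p = 8.60e-04). Its paralog Smarca1 (SNF2L) was scarce, at 1.71 and 2.53, 0.712 and 3.49, and 3.77 and 4.75 CPM (1.03 ± 0.73). Smarcad1 and Smarcal1, remodellers of replicating or damaged DNA, gave 0.20 and 0.62 without passing.

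**Figure D4:**
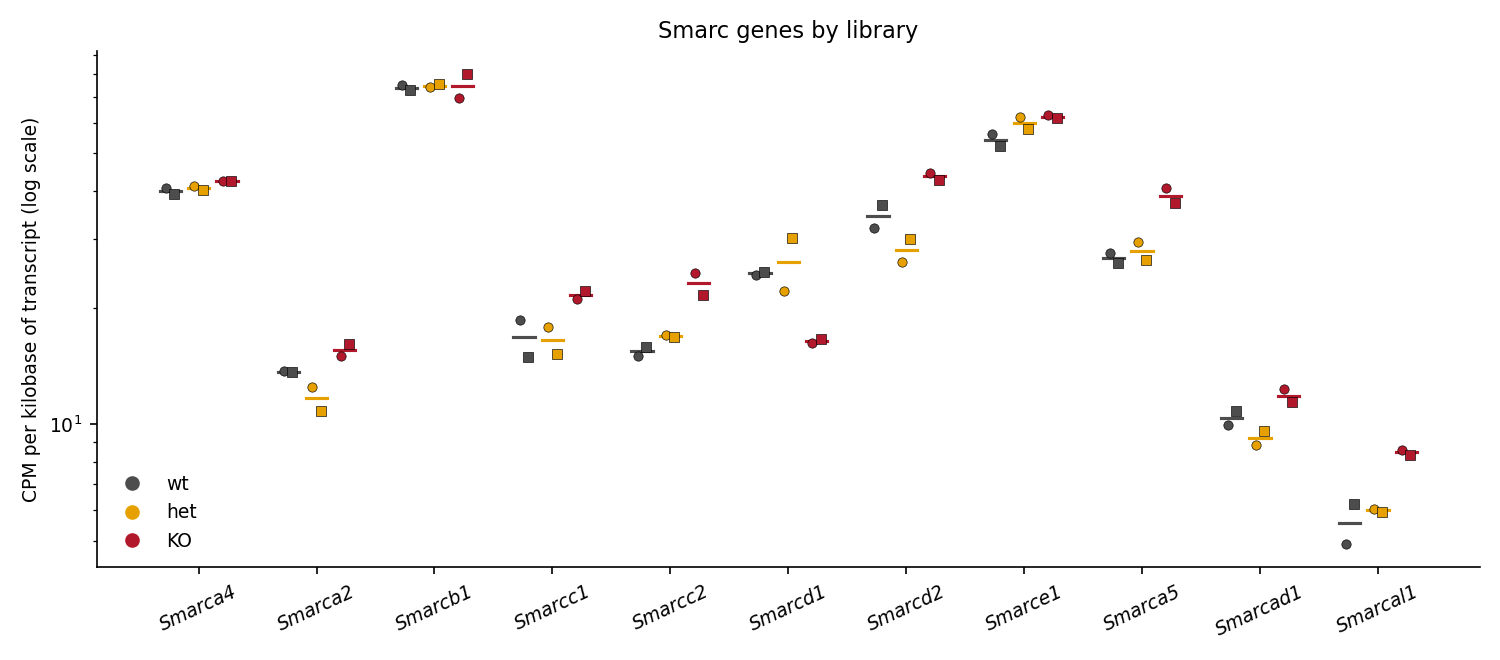
CPM per kilobase of the longest transcript for the Smarc genes in each library, on a log axis, without the scarce Smarca1 and Smarcd3. Circles and squares are the lower- and higher-numbered replicate of wt (grey), het (orange) and KO (red), and bars are group means; Smarca4 and Smarcb1 differ little between groups, Smarcd1 is lower in KO, and Smarcc2 and Smarca5 are higher.

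With loss of 1 allele, few genes passed the test. With 2 libraries a group and the smallest totals, modest changes could be missed. In het against wt, 0 of 91 members rose and 0 fell by edgeR, where 0.173% of all genes passed, 0.128% higher and 0.0457% lower. DESeq2 and limma-voom also called 0. By edgeR, 5 members had an unadjusted p under 0.05 (Brd2, Brd8, Hdac3, Kat2a and Kdm5b), as did 893 of all 10952 genes tested. Both het libraries lay above both wt libraries for 15 members and below for 16, where this held for 19.2% and 18.8% of all genes. The member closest to a call was Brd2, 0.56 higher on the log2 scale with edgeR adjusted p = 0.0850, and it passed with no filter on low counts (0.55), with the length trend removed (0.57) and with counts thinned to the smallest total (0.61). Setd1b (0.42), Setd1a (0.21) and Kmt2b (0.31) were above wt in het without passing, and Kmt2a, Kmt2c and Kmt2d gave -0.03, -0.33 and 0.04.

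Against het, the KO libraries gave a like picture. In KO against het, 18 members rose and 29 fell, with a median of -0.04 (31.2% of all genes passed, 13.9% higher and 17.2% lower). Both KO libraries lay above both het libraries for 30 members and below for 38, where this held for 31.4% and 33% of all genes. This comparison shares its KO libraries with KO against wt, so the 2 are not independent, and 11 members were called higher and 28 lower in both, with 0 in opposite directions. The H3K4 methyltransferases again gave 6 of 6 lower, from -4.47 ± 0.37 for Setd1b and -3.48 ± 0.25 for Setd1a to -0.61 ± 0.21 for Kmt2c (edgeR adjusted p = 9.66e-09, 1.46e-09 and 0.0323). Kdm6b gave -2.72 ± 0.23 and Kat2b -2.10 ± 0.29. The largest rises were those of Prmt7 (1.18 ± 0.18), Kat7 (0.99 ± 0.14), Chd1l (0.97 ± 0.32) and Kdm3a (0.95 ± 0.16). Called against het alone were Smarca2 (0.43), Smarcc1 (0.40), Smarcd2 (0.62), Kat14 (0.56), Chd1l, Kdm1a (0.51) and Kdm4c (0.80) higher and Chd6 (-0.86) lower. Called against wt alone were Chd1, Prmt3 and Brd2. For Brd2 the difference between KO and het was 0.09 ± 0.12. The call of Kmt2c was lost without het replicate 2 (-0.53), het replicate 3 (-0.71), KO replicate 2 (-0.47) or wt replicate 4 (-0.57), and that of Chd1l without het replicate 2 (0.79) or KO replicate 1 (0.78). Without het replicate 3, Smarca2 (0.32), Smarcc1 (0.28), Kat14 (0.44) and Kdm4c (0.71) were not called. The same held without KO replicate 1 for Smarca2 (0.49), Smarcc1 (0.43), Kat14 (0.60) and Kdm4c (0.68), without KO replicate 2 for Smarca2 (0.39), Smarcc1 (0.37), Kat14 (0.53) and Kdm1a (0.44), and without het replicate 2 for Kdm1a (0.38). The count of rises fell to 9 without het replicate 3, 10 without KO replicate 1 and 10 without KO replicate 2.

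Partner genes of the same complexes, 166 in all, were listed by textbook membership, also with earlier results of these data known. In KO against wt, 33 of 162 tested rose and 40 fell, with a median of -0.07, and in het against wt 0 rose and 0 fell. Over all genes tested, the KO against wt shares were 14.7% higher and 17.3% lower. Beside the falling H3K4 enzymes, 5 of 12 non-catalytic COMPASS subunits rose and 1 fell. Ash2l, which stimulates the methyltransferases, went from 69.8 and 70.9 CPM in wt to 113 and 116 in KO (0.71 ± 0.14, edgeR adjusted p = 4.62e-04), Paxip1 gave 0.79 ± 0.17 and Men1, which encodes menin, 0.46 ± 0.14. Men1 was not called when wt replicate 4 (0.48), wt replicate 5 (0.48) or KO replicate 1 (0.34) was left out.

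In the NuRD complex of Chd4 and Hdac2, 4 of 10 partners rose and 3 fell. Mta1, a scaffold of the deacetylase core, fell from 133 and 131 CPM in wt to 36.8 and 35.6 in KO (-1.87 ± 0.16, edgeR adjusted p = 2.14e-08). Its paralog Mta2 rose from 122 and 141 to 301 and 309 (1.22 ± 0.11, edgeR adjusted p = 6.19e-08), and Gatad2b fell by 2.40 on the log2 scale. The paralogs thus moved apart, as Kat2a and Kat2b did.

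Among BAF partners 2 of 16 tested rose and 6 fell, led by the DNA-binding subunits Arid1a (-1.31 ± 0.15) and Arid2 (-1.05 ± 0.14), while Ss18 rose (0.77 ± 0.14). Of the Polycomb genes, 3 of 10 PRC2 partners rose and 1 fell, among them the histone-binding Rbbp4 (0.46) and Rbbp7 (0.43) higher and Aebp2 (-0.69) lower. Rbbp4 and Rbbp7 are also counted among the NuRD partners that rose. In PRC1, 1 of 17 rose and 5 fell, with Phc1 at -1.93, Rybp at -1.11 and Phc3 at -1.08. Without wt replicate 4 the calls of Aebp2 (-0.51), Phc3 (-0.84) and Atrx (-0.41), described next, were lost, and without KO replicate 2 those of Aebp2 (-0.59) and Phc3 (-0.89). Deacetylase corepressors gave 0 of 15 higher and 5 lower, among them Mier1 and Gps2 at -0.95 and -0.93. For acetyltransferases and partners, 4 of 24 rose and 4 fell, close to the shares over all genes. The 3 falls with the smallest adjusted p were those of Epc2 (-2.46), Trrap (-1.57) and Crebbp (-1.11), the gene of the Notch coactivator CBP. The ISWI, INO80 and SRCAP class gave 2 of 17 higher and 7 lower, with Ino80 at -1.76, Ep400 at -1.16 and Atrx at -0.76. Other histone methyltransferases gave 4 of 15 higher and 3 lower, with Ehmt2 (G9a, an H3K9 enzyme) at -1.09, Ash1l at -1.12 and Carm1 at 0.78.

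Histone chaperones, many of which rebuild chromatin after DNA replication, gave 7 of 13 higher and 1 lower. Those higher included the FACT subunits Ssrp1 (0.74 ± 0.10) and Supt16 (1.17 ± 0.17) and Chaf1a (1.12 ± 0.16), the large subunit of the assembly factor CAF-1. In heterochromatin and DNA methylation, 3 of 15 rose and 4 fell. The maintenance methyltransferase Dnmt1 rose from 152 and 126 CPM in wt to 302 and 308 in KO (1.13 ± 0.12, edgeR adjusted p = 2.70e-07) and its partner Uhrf1 from 140 and 137 to 277 and 273 (0.99 ± 0.11), while Cbx3 (HP1 gamma) fell from 312 and 320 to 109 and 120 (-1.46 ± 0.11, edgeR adjusted p = 2.09e-09). Of 8 proliferation markers, 5 rose and none fell in KO against wt, with summed levels of 1559 and 1428 CPM in wt, 1614 and 1698 in het, and 1987 and 1888 in KO. The part of the cell cycle in these values was not tested.

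The members that fell had longer transcripts and richer C content than the rest, properties the symbol rule did not use. These properties are linked by construction, since a longer transcript holds more windows from which the maximum is taken. The 28 called lower had a median longest transcript of 6979 bases, from 1891 for Sirt6 to 19823 for Kmt2d. The median was 4305 bases for the 14 called higher and 3051 for the 49 not called. Of 17 members over 8000 bases, 11 fell and 0 rose (64.7% lower), where 36.3% of all genes of that length fell. Of 13 members with at least 16 C in a 20-base window, 12 fell and 0 rose (92.3% lower), where 44.5% of all such genes fell. Setd1a, Setd1b, Kdm6b and Chd8, whose windows are printed above, are among these, and the exception was Hdac1. Across members, Spearman's rho with the log2 fold change of KO against wt was -0.40 for length and -0.42 for the most C in a window (n = 91 genes, which share libraries and are not independent). Over all genes with a transcript length it was 0.05 and -0.15 (n = 10910). In het against wt the values over members were 0.03 and 0.05. Among the members called, Chd1 at 7916 bases and Smarca5 at 6113 bases rose, and Kat2b at 4653 bases with 13 C fell.

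**Figure D5:**
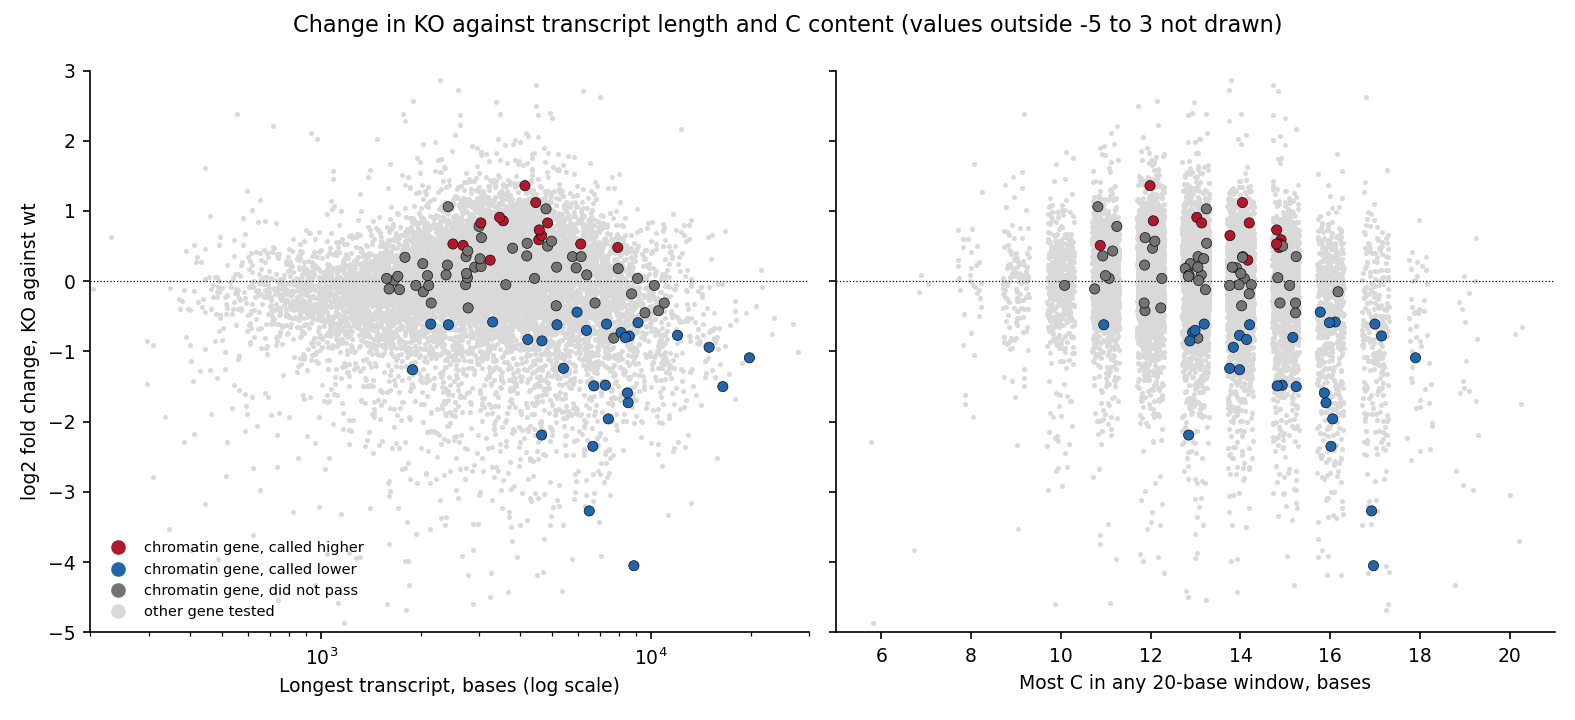
Log2 fold change of KO against wt plotted against the length of the longest transcript (left, log axis) and the most C in any 20-base window of it (right, points spread sideways for clarity). Red, blue and dark grey points are chromatin genes called higher, called lower or not called, and light points are other tested genes; no chromatin gene over 8000 bases or with 16 C or more was called higher.

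When the trend with length over all genes was removed, the median of the 6 H3K4 methyltransferases went from -1.54 to -1.03 with 4 of them lower, and with the C-rich trend removed to -1.31 with 5 lower. With both removed it was -0.81, with 4 lower and Kmt2d higher. Setd1a, Setd1b, Kmt2a, Kmt2b, Kdm6b, Kat2b, Setd7, Chd3, Chd4, Chd8, Brd3 and Hdac7 were lower, and Brd2, Brd8, Kat2a, Kat7, Kdm3a, Prmt7, Smarca5 and Smarcc2 higher, under all 18 alternatives. The length and C-rich window classes and these 2 corrections were chosen after the data were seen, except the length trend. The part of length and C-rich windows in the remaining changes was not tested.

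Promoters were searched for binding motifs of factors tied to Notch and growth. The RefSeq table (GRCm38.p6) held promoters for 78 of the 97 members, and the 250 bases before the start were searched on both strands for 3 motifs, none of which contains another. The RBPJ core TGGGAA was present in 3 of 11 promoters of members called higher, 5 of 19 of those called lower, 23.3% of those of tested genes and 21.6% of all windows of that length. The E-box CACGTG was present in 1 of 11, 1 of 19, 10.1% and 6.0%, and the E2F motif TTTNNCGC in 1 of 11, 1 of 19, 8.9% and 4.3%. A match describes the letters only.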

How the data were processed

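RNA of sorted embryonic heart endothelial cells was amplified with SMART-Seq v4, which does not mark strand, and made into Nextera XT libraries, per the labels' protocols, which disagree on single or paired reads. The authors deposited expected counts from 6 libraries in 1 table. The submitters' processing notes name CASAVA, cutadapt, RSEM and GRCm38. RSEM shares out ambiguous reads by estimate, and 44 of the 97 members share exon sequence with another annotated gene, so their values are less certain.

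Counts were rounded (4.29% to 5.87% of values in a library were not whole). Symbols, positions and transcripts came from GENCODE M21 on GRCm38, which matched 98.2% of 41214 identifiers, 147 of them through their listed transcripts. With R 4.3.3 and edgeR 4.0.16, TMM scaling, filterByExpr (minimum count 10) and two-sided robust quasi-likelihood F tests were applied to all 6 libraries in 1 fit with 3 residual degrees of freedom. Calls needed an adjusted p under 0.05 (Benjamini-Hochberg, over 10952 genes). CPM use TMM-scaled library sizes, and levels per length use the longest transcript. Fold changes are log2 unless called fold. SE was the absolute log2 fold change divided by the square root of the F statistic, so it is less reliable for changes near 0. DESeq2 1.42.0 and limma 3.58.1 were alternatives. The procedure was tested on simulated counts.

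Library values are given for the 12 highest and 12 lowest called members in KO against wt whose average log2 CPM reached 3 and whose groups did not overlap, called members up to 6 each way in the other comparisons, fixed paralog sets and each family's highest level per length. Other values in the text, such as those of Chd1, Prmt1 and the members that lost a call, were chosen after they were seen. Up to 3 partner genes a list are named by adjusted p, and more where they bear on a member. Members and lists were chosen with earlier results of these data known. Roles, the C-rich measure and 2 of 18 alternatives were chosen after seeing the data. Some named genes are not reported here.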

Additional observations from a re-analysis of the deposited data

How the results depend on the processing

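The 18 alternatives changed scaling, filter, tool, libraries or a trend, and 6682 values of members and named partner genes were recomputed. Of these, 6366 kept their side of the threshold, 226 lost it, 78 gained it and 12 passed in either setting and changed sign. A direction was read only where a value passed in either setting, and 253 of the 3828 that passed in neither changed sign. With library size only, the median of all genes moved from -0.02 to 0.35 in KO against wt and from -0.02 to 0.36 in KO against het. Relative to that shift the members moved little, but 36 were called higher and 17 lower in KO against wt (median 0.38) and 34 higher and 15 lower in KO against het (median 0.34), and Kmt5a (KO against wt, 0.31) and Smarcb1 (KO against het, 0.38) were called higher. DESeq2 called 9 higher in KO against het. For het against wt 1 member, Brd2, was called higher with no filter, with the length trend removed and with thinned counts. With the length trend removed, Kmt2c gave 0.02 in KO against het. With length and C-rich trends removed, KO against wt gave 0.51 for Chd7, 0.06 for Kat6a, 0.38 for Kmt2d and 0.04 for Kmt2e, and KO against het gave 0.19 for Kdm2a, 0.44 for Kdm5a, 0.04 for Kmt2c, 0.33 for Kmt2d and 0.05 for Kmt2e. The cause of these moves was not tested. Leaving out 1 library gave 10 to 19 higher and 19 to 28 lower in KO against wt, 0 and 0 in het against wt, and 9 to 18 higher and 23 to 29 lower in KO against het. In KO against wt, 8 of 14 rises and 12 of 28 falls passed under all 18, and in KO against het 7 of 18 and 14 of 29. No paired analysis was possible because the groups compared share fewer than 2 replicate numbers. With 2 libraries a group and totals down to 1537908 counts, members near 5 CPM, such as Sirt3 to Sirt5, could show only large changes.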
